A study of Phyllostachys nigra with 21 samples.

Results

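The UDP-glycosyltransferase genes of black bamboo (Phyllostachys nigra, Pn) were followed in the culm, the stem that turns black as it matures, at low temperature (LT) and room temperature (RT). A gene was taken as a member when its deposited description, in any letter case, contained UDP-glycosyltransferase, UDP-glucosyltransferase, glucosyltransferase UGT or scopoletin glucosyltransferase, and descriptions with anthocyanidin, flavonol or flavone were left out. The rule found 107 members among 42460 genes. RNA was sequenced from culms of potted greenhouse plants in 7 groups of 3 libraries. CK was taken before treatment, LT1d, LT15d, and LT25d were kept at 4 °C for 1, 15, and 25 days, and RT1d, RT15d, and RT25d were kept at 25 °C for the same times, with no other agent or genotype in any group. The sources used here do not tie a library to a plant, so p-values measure only the spread between these libraries, which may be technical.

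UDP-glycosyltransferases (UGTs) move a sugar, usually glucose, from a UDP-sugar onto small molecules. Their acceptors include phenolics, coumarins, hormones, sterols, and toxins, and the sugar makes a compound more soluble, less reactive, and easier to store in the vacuole. Plants carry large UGT families, many of whose genes lie side by side on a chromosome. The family number in a name (UGT73, UGT88) reflects sequence, and enzymes of one family can differ in their acceptors, so a member's name is that of its closest described protein and not a measured activity.

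FPKM (fragments per kilobase of transcript, scaled to the mapped fragments of a library), as the authors deposited it, gives the level of a gene here. A log2 fold change is edgeR's, from the deposited estimated counts with TMM scaling, given with its standard error (SE) and with a p-value adjusted by the Benjamini-Hochberg method over the 29913 genes tested. Genes were tested when they reached an FPKM of 1 in at least 3 libraries, and a gene was called at an adjusted p of at most 0.05 and a change of at least 2-fold. Total counts ran from 33957497 to 50338658 per library. TMM factors lay between 0.809 and 0.842 in LT1d and LT15d and between 1.07 and 1.16 in the RT groups, so a fold change on Days 1 and 15 lies above the ratio of the FPKM values. With scaling to library size alone, the median of all genes tested moved by -0.47 on the log2 scale on Day 1 and by -0.35 on Day 15. Among members with a mean of at least 5 FPKM in the group, the median coefficient of variation was 5.50% to 7.72% in LT15d, LT25d, and RT15d, and 16.7% to 29.8% in the other groups, so the spread within the former groups was small. The fit takes a single estimate of the spread of a gene over all groups. Even groups therefore lower the p-values of every comparison, and uneven groups raise them. CK was the least even group. In CK, 19 of 53 tested members with a mean of at least 1 FPKM had a highest value at least 3 times the lowest. In 11 of them replicate 1 lay below both other libraries by that factor. RT25d was next, with 10 of 52 by the same measure. Its FPKM summed over all members was 400, 354, and 283 in replicates 1, 2, and 3. Chlorophyll a-b binding protein genes, markers of green tissue, summed to 5.36 to 13 FPKM in LT1d against 388 to 566 in RT1d, and all 10 tested of 14 were called lower. Their sum was 177 to 180 in LT15d against 320 to 355 in RT15d and 128 to 132 in LT25d against 44.1 to 124 in RT25d, where Day 15 had 1 rise and 6 falls and Day 25 had 4 rises and 0 falls. Of the 14 genes, 4 were at 0 in every LT1d library and 4 in every RT1d library. Cuticle markers summed to 144 to 199 FPKM in LT1d against 704 to 850 in RT1d, to 86.7 to 90.7 in LT15d against 339 to 378 in RT15d, and to 303 to 310 in LT25d against 137 to 279 in RT25d. Of 24 tested, 4, 1, and 8 were called higher and 13, 14, and 9 lower on Days 1, 15, and 25. Secondary wall markers summed to 94.7 to 174 in LT1d against 77.2 to 201 in RT1d, 147 to 150 in LT15d against 45.9 to 48.3 in RT15d, and 72.7 to 76.4 in LT25d against 20.5 to 34.6 in RT25d. Of 25 tested, 4, 14, and 11 were called higher and 2, 4, and 3 lower. Markers of dividing cells summed to 980 to 994 FPKM in LT1d against 1443 to 1464 in RT1d, and to 1289 to 1310 in LT15d against 1372 to 1413 in RT15d. On Day 25 they summed to 1440 to 1473 in LT25d against 1569 to 1717 in RT25d. Of 51 tested, 7, 8, and 4 were called higher and 12, 18, and 13 lower. Of all genes tested, 20.8%, 19.3%, and 11.3% were called higher and 23.4%, 20.8%, and 13.2% lower on Days 1, 15, and 25. The part of such markers in the UGT results was not tested, and in whole culms fewer cells of a type and less RNA per cell cannot be told apart.

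Of the 107 members, 73 passed the filter and were tested. The 34 others stayed at or below 2.90 FPKM in every library, and 5 of them reached 1 FPKM in any library. The largest subgroups by name were UGT73 (19 members, 12 tested), proteins like maize BX8 and BX9 (15 members, 7 tested), UGT88 (11 members, 9 tested), UGT74 and UGT83 (7 members each, 6 tested each), and UGT91 (6 members, 2 tested). Members lay on 30 scaffolds. There were 15 runs, in which consecutive members had at most 5 other genes between them. They held 48 members, and the remaining 59 lay apart. The deposited annotation gave 105 members the GO term for flavonoid biosynthetic process and 87 the term for quercetin 3-O-glucosyltransferase activity, whatever their names. It placed 21 members in the KEGG pathway of flavone and flavonol biosynthesis, 15 in zeatin biosynthesis (13 of them BX8 or BX9 matches), and 2 in benzoxazinoid biosynthesis, and 49 had no pathway. Members are grouped by name below, since nearly all share the flavonoid term and many have no pathway.

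Summed over all members, FPKM was highest on Day 15 and lowest in LT25d. The sum was 340 ± 20.7 (SD, n = 3) in CK. On Day 1, LT1d had 332 ± 41.1 (SD, n = 3) and RT1d 402 ± 26.0 (SD, n = 3). On Day 15 it was 495 ± 8.80 (SD, n = 3) in LT15d against 467 ± 11.4 (SD, n = 3) in RT15d. On Day 25 it was 231 ± 1.73 (SD, n = 3) in LT25d against 346 ± 59.0 (SD, n = 3) in RT25d. The LT libraries lay below all RT libraries on Days 1 and 25 and above all of them on Day 15. These are sums of FPKM, not of scaled counts, and a single gene held much of the LT15d sum. Of the 73 tested members, 23 had their highest group mean in RT15d, 16 in LT15d, 10 in RT25d, 8 in CK, 7 in RT1d, 6 in LT1d, and 3 in LT25d.

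**Figure D1:**
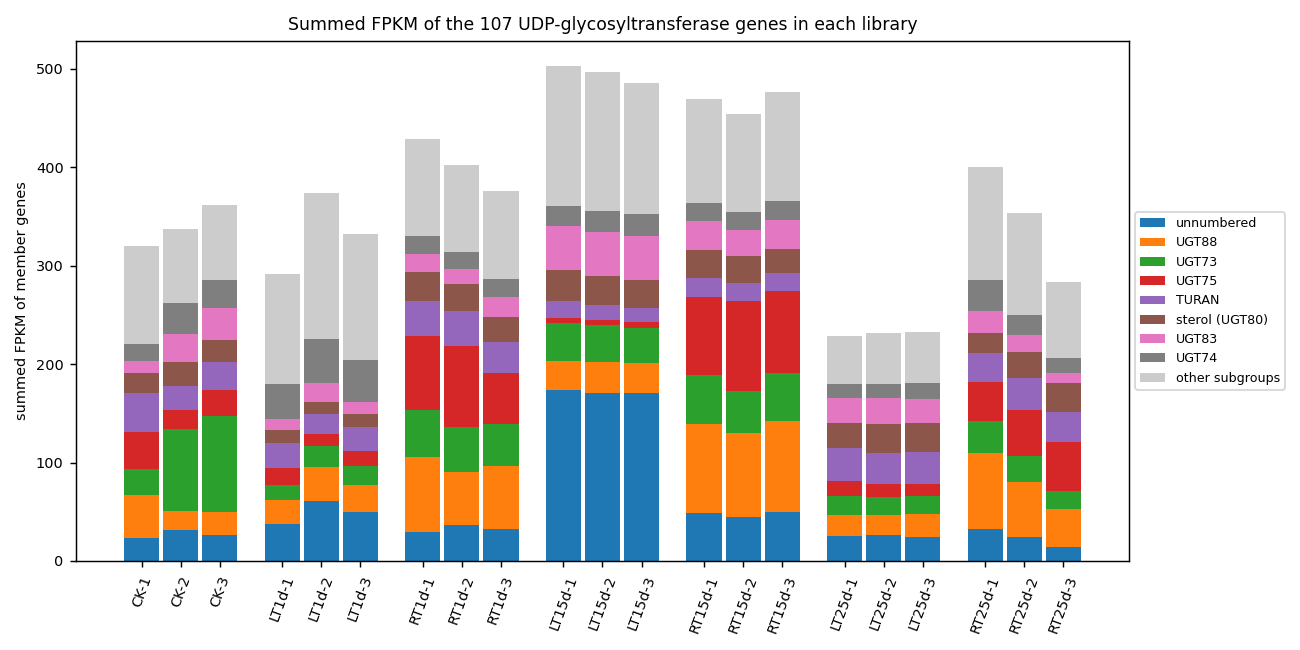
Summed FPKM of the 107 members in each of the 21 libraries (bars start at 0), with colours for the 8 subgroups of highest mean and grey for the rest. LT25d libraries sum to about 231 FPKM, and the unnumbered subgroup, which holds PH02Gene45455, makes up 172 of the 495 FPKM in LT15d.

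The 8 members with the highest mean over all libraries made up 29.8% to 52.9% of the summed FPKM of a library, with the highest shares in LT15d. The first was PH02Gene45455, described as UDP-glycosyltransferase 13 (scaffold 14, 55157545 to 55159320). Its FPKM was 17.1, 28.2, and 21.9 in CK, 35.8, 58.1, and 47.8 in LT1d, and 24.5, 29.9, and 25.0 in RT1d. It reached 163, 162, and 162 in LT15d against 34.4, 30.8, and 35.9 in RT15d. In LT25d it was back at 21.2, 22.6, and 20.3, within the range of RT25d (24.2, 17.2, and 9.46). The LT libraries lay above all RT libraries on Days 1 and 15. The log2 fold change was 1.36 on Day 1 (SE 0.28, adjusted p = 0.00036) and 2.67 on Day 15 (SE 0.29, adjusted p = 5.8e-07), and on Day 25 it was 0.37 (SE 0.28, adjusted p = 0.29). The Day 1 call was lost with scaling to library size and in limma, where its log2 fold change was at least 0.79.

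PH02Gene09866 and PH02Gene09849, both described as UGT75E2, came next and were low in LT on every day. They lie apart on scaffold 12 (4092422 to 4093757 and 4610557 to 4612335). PH02Gene09866 had 8.51, 6.0, and 7.47 FPKM in LT1d against 38.3, 40.7, and 25.4 in RT1d, and 2.89, 2.34, and 3.75 in LT15d against 39.4, 44.8, and 41.8 in RT15d. On Day 25 it had 8.34, 7.16, and 6.37 in LT25d against 20.2, 26.0, and 26.6 in RT25d, and CK lay between with 17.9, 10.2, and 12.6. No LT library overlapped the RT libraries of its day. Its log2 fold changes were -1.72, -3.42, and -1.69 on Days 1, 15, and 25 (SE 0.20 to 0.21), and those of PH02Gene09849 were -1.67, -3.62, and -1.69 (SE 0.19 to 0.20). All 6 values were called and stayed called under every alternative. Against CK both genes were called higher in RT1d and RT15d (log2 fold change 1.02 to 1.40) and lower in LT15d and LT25d. Their values were close in every library, and the sources used here do not say whether reads were shared between the copies, so the genes may not be separate measurements.

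Of the other highly expressed members, PH02Gene48280 (UGT88B1, scaffold 14, 50353578 to 50357512) was low in LT from Day 15. Its FPKM was 9.57, 19.0, and 14.9 in LT1d, which overlapped RT1d (23.3, 18, and 19.9), then 7.99, 6.65, and 7.28 in LT15d against 29.8, 28.1, and 30.1 in RT15d. On Day 25 it was 4.09, 4.77, and 5.02 in LT25d against 44.1, 29.5, and 15.3 in RT25d, the most uneven group of this gene. The log2 fold changes were 0.04, -1.61, and -2.65 on Days 1, 15, and 25, the last with an SE of 0.32 and an adjusted p of 4.4e-06. The Day 15 call was lost when LT15d, LT25d, and RT15d were each summed. PH02Gene21687 (UGT83A1, scaffold 21, 14469544 to 14471761) had 37.6, 38.2, and 37.6 FPKM in LT15d against 17.0, 15.2, and 19.3 in RT15d, but 0.997, 15.1, and 19.7 in CK. In rice, UGT83A1 glucosylates flavonoids and monolignols. Its Day 15 log2 fold change of 1.54 (SE 0.66, adjusted p = 0.050) was called only at the border of the threshold, and the call was lost in 14 of 16 alternatives although no LT15d library overlapped RT15d.

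Of the 8, 2 were not called on any day. PH02Gene19542 (scaffold 13, 3404867 to 3406164) matches TURAN, an Arabidopsis protein of the endoplasmic reticulum needed for pollen tube reception, and had 8.02 to 28.7 FPKM over all libraries. Its log2 fold changes between LT and RT were -0.13, 0.12, and 0.19 on Days 1, 15, and 25. PH02Gene32133 (UGT80A2, scaffold 24, 7056384 to 7083571) matches enzymes that glucosylate sterols in Arabidopsis membranes. It had 4.39, 4.90, and 4.83 FPKM in LT1d against 12.4, 11.4, and 11.4 in RT1d, with no overlap, and its log2 fold change of -0.79 (SE 0.12, adjusted p = 1.8e-05) lay under the 2-fold threshold. The eighth, a scopoletin glucosyltransferase, is described with its subgroup.

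**Figure D2:**
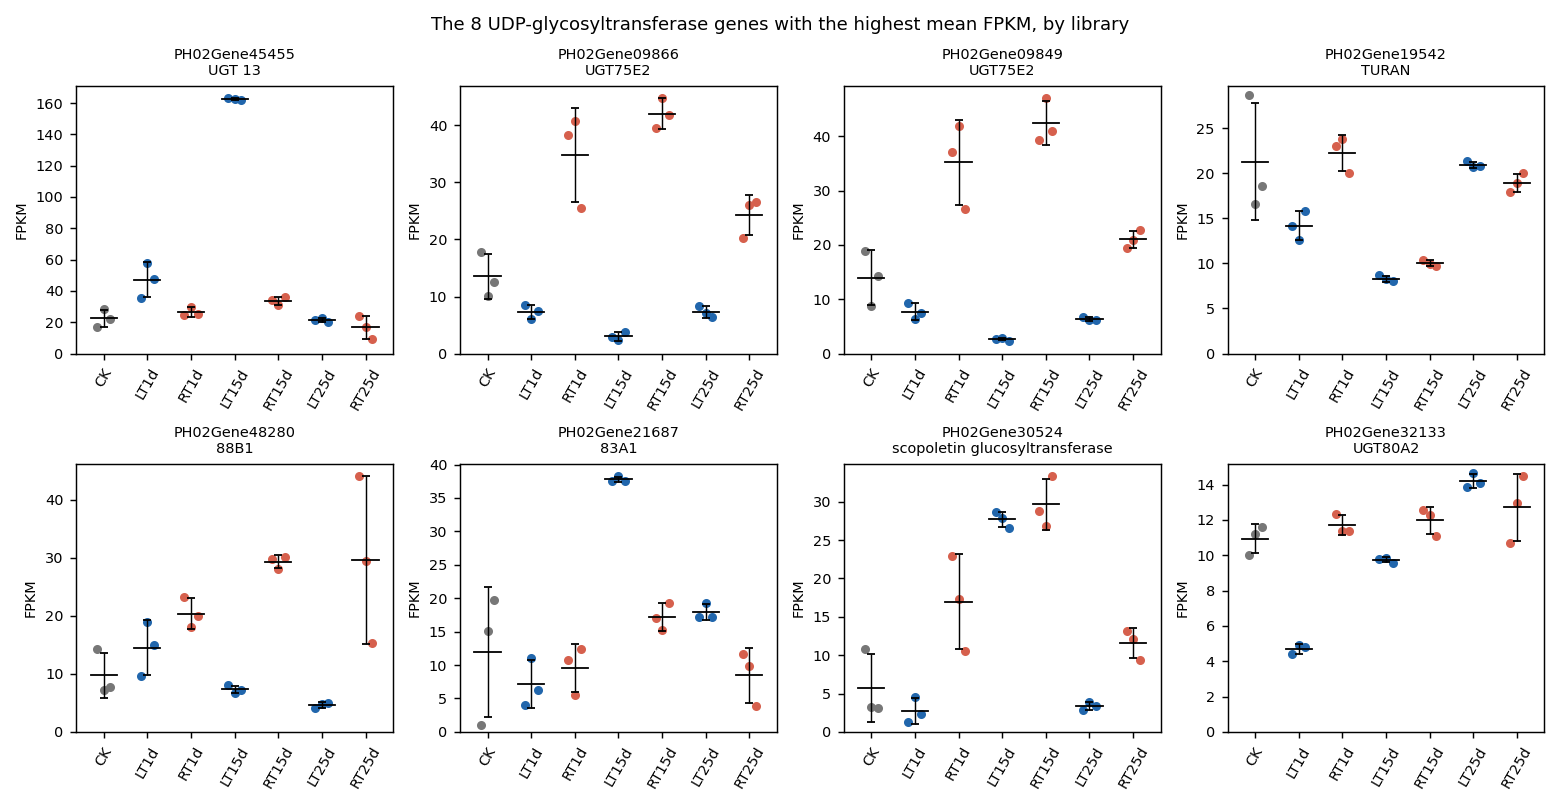
FPKM of the 8 members with the highest mean, by library (points), with the group mean (line) and SD (bars, cut at 0) of 3 libraries, in grey for CK, blue for LT, and red for RT. PH02Gene45455 stands at 162 to 163 FPKM in LT15d and the UGT75E2 genes lie lower in LT than in RT on every day.

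On Day 1, 18 of the 73 tested members were called higher in LT1d than in RT1d and 27 lower. Over all genes tested, 20.8% were called higher and 23.4% lower, so the share of members called higher (24.7%) was near the background and the share called lower (37.0%) lay above it. The median log2 fold change was -0.28 for the members and -0.06 for all genes. Limma on log2(FPKM + 1) called 10 higher and 24 lower (13.7% and 32.9%, against 11.5% and 27.0% of all genes in limma).

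The members with the largest Day 1 rises lay next to one another. On scaffold 24, a run of 41.1 kb (13293911 to 13334979) held PH02Gene08407, PH02Gene50580, and PH02Gene46335, all matched to barley UGT13248, which glucosylates deoxynivalenol, a toxin of Fusarium fungi. PH02Gene08407 had 21.8, 19.3, and 21 FPKM in LT1d against 0.190, 0.273, and 1.67 in RT1d. PH02Gene46335 had 20.1, 21.8, and 18.3 against 0.563, 0.132, and 0.919. PH02Gene50580 was lower, at 4.37, 4.46, and 5.46 against 0, 0.0563, and 0.305, and is named for its place in the run. None of the 3 exceeded 0.376 FPKM in CK, and the LT1d libraries lay far above every other group. The log2 fold changes were 5.35 (SE 0.86, adjusted p = 3.2e-05), 5.70 (SE 0.75, adjusted p = 3.7e-06), and 5.76 (SE 1.04, adjusted p = 0.00016), respectively. On Day 15 they had 2.27 to 3.46, 2.69 to 3.88, and 0.443 to 0.553 FPKM in LT15d, above all RT15d libraries, with log2 fold changes of 3.88, 3.78, and 3.89. None of these 3 Day 15 calls was kept when the libraries of LT15d, LT25d, and RT15d were each added into 1. On Day 25 the LT25d and RT25d libraries overlapped in all 3 genes. PH02Gene46335 was called lower there (log2 fold change -2.14, SE 0.72, adjusted p = 0.021), with 0.259, 0.295, and 0.299 FPKM in LT25d against 2.35, 1.52, and 0.138 in RT25d, and 8 of 15 alternatives lost that call. Since the 3 genes share a name and a neighbourhood, reads that fit several of them may have been split.

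The fourth UGT13248 match, PH02Gene36818 on scaffold 18 (27835861 to 27838273), followed another course. It had 3.10, 25.5, and 16.0 FPKM in LT1d and 4.24, 8.86, and 17.4 in RT1d, which overlapped, with a log2 fold change of 1.08 (SE 0.85, adjusted p = 0.27). On Day 15 it had 32.5, 33.8, and 28.1 in LT15d against 1.36, 1.56, and 1.79 in RT15d, a log2 fold change of 4.71 (SE 0.99, adjusted p = 0.00051). The Day 15 call was lost when the 3 libraries of each of LT15d, LT25d, and RT15d were added into 1.

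A run of 131 kb on scaffold 20 (23968689 to 24099258) held the other large rises. PH02Gene40611 (79-like, 24096966 to 24099258) had 26.6, 26.9, and 27.3 FPKM in LT1d against 0.517, 0.514, and 0.893 in RT1d, and 2.17, 2.0, and 2.78 in CK. The rice enzyme UGT79 glucosylates deoxynivalenol as well. PH02Gene40612 (74F2-like, 24072888 to 24074920) had 22.6, 23.9, and 22.6 in LT1d against 0.875, 0.840, and 1.33 in RT1d, and 1.64, 1.95, and 1.95 in CK. UGT74F2 of Arabidopsis glucosylates salicylic acid, a defence hormone. The log2 fold changes were 5.90 (SE 0.46, adjusted p = 8.5e-09) and 5.02 (SE 0.22, adjusted p = 2.6e-11), and both genes were called higher in LT1d and lower in RT1d than in CK. On Day 15 they were at 3.01 to 3.31 and 5.91 to 7.22 FPKM in LT15d, called higher than RT15d by 1.30 and 2.35 on the log2 scale, the former call being lost with library-size scaling, in limma with either pseudocount, and with the groups added up. In LT25d they were at 1.85 to 2.66 and 1.97 to 2.17 FPKM, with no call against RT25d. The third gene of the run, PH02Gene40615 (74F2-like, named for its place), was not called on any day (5.71 to 7.89 FPKM in LT1d and 9.61 to 13.5 in RT1d, log2 fold change -0.22).

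**Figure D3:**
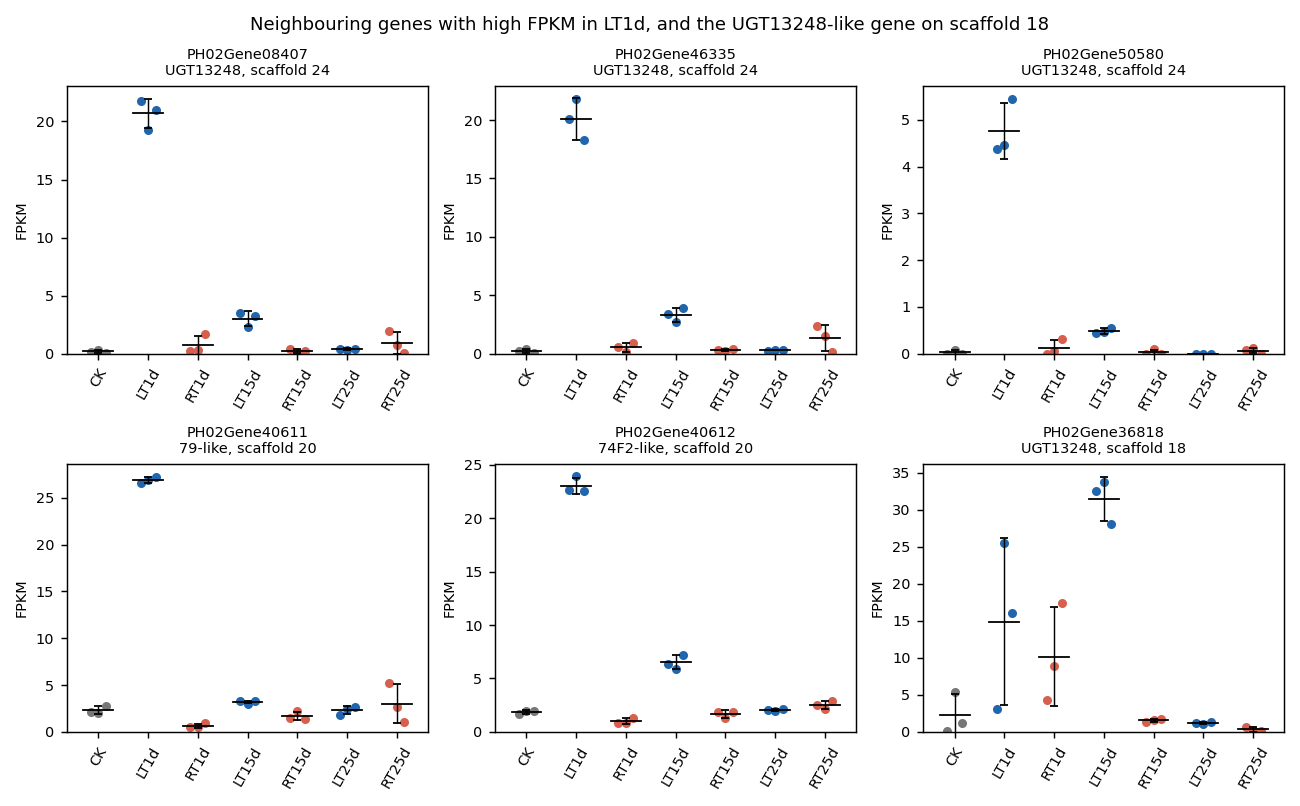
FPKM by library (points) of the 3 UGT13248 genes of scaffold 24, the pair of called genes of the scaffold 20 run, and the scaffold 18 UGT13248 gene, with group means (lines) and SD (bars, cut at 0, n = 3). The first 5 genes are highest in LT1d, at 4.37 to 27.3 FPKM, and PH02Gene36818 is highest in LT15d.

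Among UGT74 genes, 3 of 6 tested were called higher on Day 1, 1 lower, and 4 higher on Day 15. The lower one was PH02Gene41041, chosen after its values were seen, with 0, 0.278, and 0.199 FPKM in LT1d against 2.22, 2.73, and 3.11 in RT1d. Besides PH02Gene40612, the UGT74 rises of Day 1 lay near PH02Gene36818 on scaffold 18, in a run of 243 kb (27595465 to 27838273) whose members are named here for their place. PH02Gene23103 (UGT74F2) had 4.06, 6.41, and 5.46 FPKM in LT1d against 1.03, 1.29, and 2.93 in RT1d, and PH02Gene23106 (UGT74F2) had 2.39, 4.33, and 3.44 against 0.276, 0.725, and 0.695. Neither pair of groups overlapped, and the log2 fold changes were 2.12 (SE 0.64, adjusted p = 0.0075) and 3.10 (SE 0.61, adjusted p = 0.00026). Both were called higher on Day 15 as well (1.69 and 1.42). In CK they had 1.37, 8.96, and 7.23 FPKM and 1.20, 6.79, and 5.22 FPKM. Both were called lower than CK in RT1d and RT15d and neither was called higher than CK in any LT group, PH02Gene23106 being called lower than CK in LT15d and LT25d. The fourth Day 15 rise of the subgroup, PH02Gene51338 (74F2-like, scaffold 9362), had 0.506, 1.38, and 1.33 FPKM in LT15d against 0.228, 0.472, and 0.158 in RT15d (log2 fold change 2.22, SE 0.89, adjusted p = 0.038). Of the 4 Day 15 calls, that of PH02Gene40612 alone was kept when LT15d, LT25d, and RT15d were each added up. The run's remaining gene, PH02Gene23104, was not tested. It had 0.386 to 0.901 FPKM in LT1d and at most 0.0659 in RT1d.

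Some Day 1 rises from other subgroups, chosen after their values were seen, lay at a lower level. PH02Gene41125 (BX8, scaffold 15) had 3.51, 9.18, and 5.22 FPKM in LT1d against 0.727, 0.898, and 0.796 in RT1d, but 7.15, 6.74, and 5.90 in CK. Its log2 fold change was 3.41 (SE 0.32, adjusted p = 7.9e-08), and against CK it was 0.05 in LT1d (adjusted p = 0.9) and -3.36 in RT1d (adjusted p = 4.8e-07). PH02Gene30858 (UGT88A1, scaffold 16) had 5.19, 3.15, and 3.86 FPKM in LT1d against 0.710, 0.966, and 0.800 in RT1d and 0.709 to 1.98 in CK (log2 fold change 2.78, SE 0.50, adjusted p = 9.4e-05). PH02Gene22606 (82A1-like, scaffold 24) was at 0 counts in all RT15d libraries and had 25 to 41 counts in LT15d, which makes it at least 3.17-fold higher in LT15d against the floor of 12 counts per library described for the scopoletin glucosyltransferases.

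UGT73 and UGT88 genes each gave 5 of the Day 1 falls, of 12 and 9 tested, and each gave 2 rises. The run of 54.9 kb on scaffold 4 (24604717 to 24659657) held PH02Gene34886, PH02Gene34885, and PH02Gene34884, described as UGT88B1 or 88B1-like. PH02Gene34886 had 0.365, 1.87, and 0.623 FPKM in LT1d against 24.9, 14.0, and 14.6 in RT1d, a log2 fold change of -3.70 (SE 0.47, adjusted p = 2.4e-06). PH02Gene34885 had 0.877, 0.456, and 0.545 against 7.80, 5.66, and 9.74 (log2 fold change -3.09, SE 0.35, adjusted p = 5.8e-07). PH02Gene34884 had 0.940, 0.385, and 0.719 against 7.24, 4.98, and 5.33 (log2 fold change -2.56, SE 0.46, adjusted p = 9.2e-05). None of these LT1d libraries overlapped RT1d, which was a condition for naming the genes. All 3 calls held under every alternative.

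The courses of these genes after Day 1 were not alike in their calls. On Day 15 PH02Gene34884 stayed at 0.400 to 0.476 FPKM in LT15d against 5.73 to 6.69 in RT15d (log2 fold change -3.43) and PH02Gene34885 at 0.665 to 0.907 against 6.50 to 7.17 (-2.69). PH02Gene34886 had 9.44, 11.4, and 10.5 in LT15d against 27.7, 25.0, and 27.5 in RT15d, and its log2 fold change of -0.96 missed the threshold. On Day 25 only PH02Gene34884 of the run was called (log2 fold change -1.28, SE 0.43, adjusted p = 0.022), a call that 6 of 15 alternatives lost. PH02Gene13138, a UGT88B1 gene on scaffold 10 (18262595 to 18264348), was called lower on all 3 days, with log2 fold changes of -2.36, -3.59, and -1.91. It had 0.123 to 0.527 FPKM in LT15d against 5.17 to 5.64 in RT15d. Its Day 25 call was lost when LT15d, LT25d, and RT15d were each summed.

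PH02Gene42721 (91C1-like, scaffold 10, 34584307 to 34586554) completed the Day 1 falls with 1.00, 0.497, and 0.473 FPKM in LT1d against 10.6, 9.08, and 7.55 in RT1d. Its log2 fold change was -3.24 (SE 0.35, adjusted p = 3.4e-07) on Day 1, -0.85 on Day 15, and -0.39 on Day 25, with no call on the later days.

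**Figure D4:**
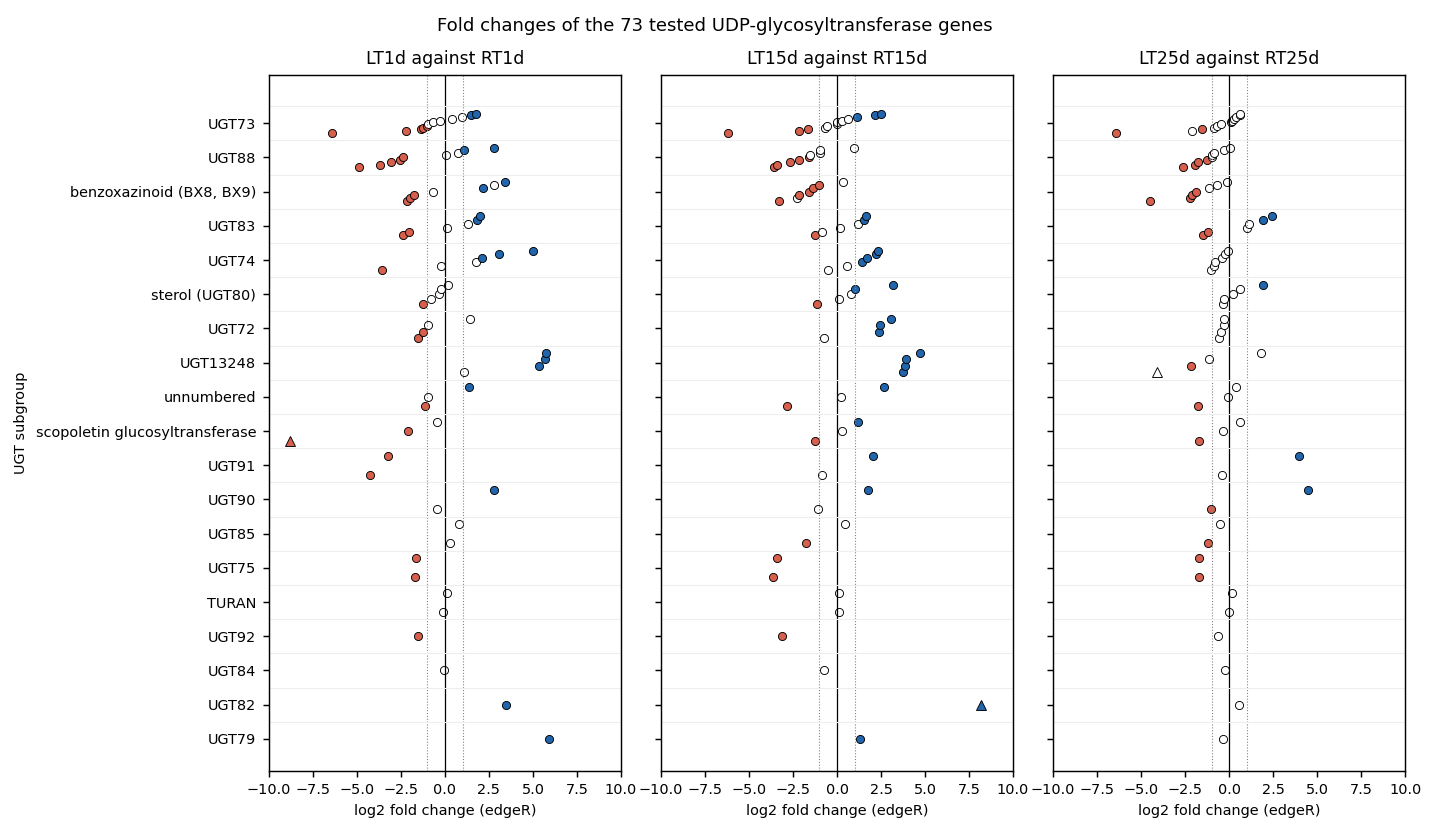
Log2 fold change of each of the 73 tested members (points) in LT against RT on Days 1, 15, and 25, by subgroup. Blue points were called higher, red points lower, and white points were not called. Dotted lines mark a log2 change of 1 in each direction, and triangles mark genes with a group at 0 counts, whose fitted value depends on the prior count. On Day 25 the calls are 5 higher and 19 lower.

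On Day 15, 24 members were called higher in LT15d than in RT15d and 21 lower, against 19.3% and 20.8% of all genes tested. The shares of members were 32.9% and 28.8%, and the median log2 fold change was 0.12 for the members and -0.02 for all genes. With scaling to library size the counts became 15 and 27, against 13.6% and 28.6% of all genes, and the median of the members turned to -0.22. When the libraries of LT15d, LT25d, and RT15d were added into 1 per group, 7 higher and 7 lower members were left, 9.59% each, against 9.75% and 10.3% of all genes, so neither share lay above the background.

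All 4 UGT13248 genes and 3 of 4 tested UGT72 genes were among the Day 15 rises, and of these 7 calls those of PH02Gene26653 and PH02Gene50461 alone were kept with LT15d, LT25d, and RT15d each added up. PH02Gene26653 (72B3-like, scaffold 1, 19114520 to 19116217) had 12.6, 13.6, and 11.7 FPKM in LT15d against 3.82, 2.32, and 3.37 in RT15d. PH02Gene50461 (72B3-like, scaffold 2900, 2951 to 4748) had 9.04, 9.13, and 8.51 against 2.01, 1.67, and 2.71. UGT72 enzymes of Arabidopsis glucosylate phenolics, among them the monolignols that form lignin. The log2 fold changes were 2.39 (SE 0.24, adjusted p = 2.1e-07) and 2.46 (SE 0.30, adjusted p = 1.9e-06), and both calls held under every alternative. On Day 1 the same genes were called lower, with 1.37, 0.883, and 0.755 FPKM in LT1d against 4.92, 3.41, and 4.01 in RT1d for PH02Gene26653 (log2 fold change -1.50). For PH02Gene50461 the Day 1 value was -1.23, with 1.28, 0.378, and 0.693 against 2.94, 2.33, and 2.76, and the call was lost without LT1d replicate 2. On Day 25 the libraries of both genes overlapped (log2 fold changes -0.46 and -0.30). The change of the cold effect from Day 1 to Day 15 was itself called, at 3.89 (adjusted p = 1.6e-07) and 3.69 (adjusted p = 2.6e-06) on the log2 scale. The third, PH02Gene50873, named as the remaining rise of the subgroup, rose on Day 15 only, from 0.241 to 0.449 FPKM in RT15d to 1.91 to 2.74 in LT15d.

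UGT73 genes were called in both directions on Day 15, 3 of 12 higher and 3 lower. The 3 that rose, PH02Gene20756, PH02Gene20757, and PH02Gene20759, lay in a single run on scaffold 9 (9365717 to 9704754) and were chosen after their values were seen. PH02Gene20757 (73E1-like) had 3.26 to 3.60 FPKM in LT15d against 0.481 to 0.954 in RT15d. Enzymes of the UGT73C group in Arabidopsis include ones that glucosylate brassinosteroid hormones. The UGT73C5-like gene PH02Gene29098 on scaffold 16, also chosen after its values were seen, had its highest values before treatment, with 3.17, 38.2, and 44.9 FPKM in CK, and 1.41 to 2.58 in LT1d against 11.9 to 14.3 in RT1d (log2 fold change -2.21). Another run of UGT73 genes, on scaffold 17 (84906726 to 85011765), had all 3 members called lower on Day 1. Of these, PH02Gene41874 (73C3-like) was nearly silent in LT, with 0.0244, 0, and 0 FPKM in LT1d against 1.12, 1.11, and 1.98 in RT1d, and 0.0449, 0.0556, and 0 in LT15d against 4.16, 3.55, and 3.42 in RT15d. It was called lower on Days 1 and 15, its CK level was 0.437, 2.25, and 2.95, and it was chosen after its values were seen. PH02Gene33060 (UGT73C6, scaffold 21) came up late at room temperature, with 1.38, 1.83, and 3.18 FPKM in RT25d and at most 0.192 in any other library. Its Day 25 log2 fold change was -6.40 (SE 1.09, adjusted p = 0.00014). PH02Gene33060 was also chosen after its values were seen.

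The run on scaffold 14 that holds PH02Gene45455 (55157545 to 55396408) had calls in both directions. PH02Gene45454 (UGT88F3) had 5.31, 5.98, and 4.41 FPKM in LT1d against 3.74, 3.04, and 3.77 in RT1d (log2 fold change 1.10, SE 0.17, adjusted p = 1.9e-05). PH02Gene34609 (UGT88A1) had 0.929, 0.787, and 0.811 FPKM in LT15d against 4.53, 4.42, and 5.76 in RT15d (log2 fold change -2.14, SE 0.49, adjusted p = 0.0011). PH02Gene34611 was lower on Day 1 alone, with 1.21, 2.02, and 1.49 FPKM in LT1d against 4.52, 5.05, and 5.40 in RT1d (-1.14). These 3 genes are named for their place.

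On Day 25 the calls were fewer, 5 members higher in LT25d than in RT25d and 19 lower. Of all genes tested, 11.3% were called higher and 13.2% lower, against 6.85% and 26.0% of the members. The median log2 fold change was -0.45 for the members and -0.02 for all genes. With LT15d, LT25d, and RT15d each summed, 2 higher and 6 lower members were left (2.74% and 8.22%, against 6.24% and 5.45% of all genes), and limma on log2(FPKM + 1) called 1 and 15. In limma these were 1.37% and 20.5% of the members, against 8.22% and 8.70% of all genes. The 5 that rose in edgeR were PH02Gene21685 (83A1-like), PH02Gene29843 (UGT83A1), PH02Gene30418 (91D1), PH02Gene21897 (90A1-like), and PH02Gene22329 (UGT80B1), chosen after their values were seen. All were low, with at most 1.97 FPKM in any LT25d library. PH02Gene22329, a sterol glucosyltransferase match, had 1.81, 1.90, and 1.56 in LT25d against 0.537, 0.625, and 0.250 in RT25d (log2 fold change 1.93, SE 0.62, adjusted p = 0.016).

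In all, 64 members (87.7%) were called on at least 1 day, against 65% of all genes tested. That gap narrowed with LT15d, LT25d, and RT15d each added up. Among the 64 members, 7 (9.59% of those tested) were called lower in LT on all 3 days, against 3.59% of all genes tested. They were the UGT75E2 genes, PH02Gene13138 and PH02Gene34884 among the UGT88 genes, and 3 neighbours matched to BX8. With LT15d, LT25d, and RT15d each added up, the UGT75E2 genes alone were lower on all 3 days (2.74% of the members, against 1.16% of all genes). No member was called higher on all 3 days, against 2.80% of all genes.

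Maize BX8 and BX9 glucosylate DIMBOA and DIBOA, benzoxazinoid defence compounds of grasses. The largest run of members, 560 kb on scaffold 4 (41624478 to 42184778), held 5 of their matches and 2 matched to UGT76C2, a cytokinin glucosyltransferase of Arabidopsis. In 4 of the 7 (PH02Gene33047, PH02Gene33052, PH02Gene36954, and PH02Gene36956) no library passed 0.65 FPKM. The other 3 all were called lower on all 3 days. PH02Gene33049 had 1.02, 1.20, and 1.18 FPKM in LT1d against 8.12, 6.38, and 7.32 in RT1d, 1.91, 1.85, and 1.87 in LT15d against 7.91, 7.15, and 7.06 in RT15d, and 1.04, 1.41, and 0.937 in LT25d against 6.4, 6.14, and 3.75 in RT25d. Its log2 fold changes were -2.15, -1.57, and -2.21 (SE 0.26 to 0.27). PH02Gene33050 had 1.12 to 1.31, 2.35 to 2.46, and 1.13 to 1.54 FPKM in LT on the 3 days against 6.38 to 7.80, 7.62 to 9.27, and 4.31 to 7.15 in RT (log2 fold changes -2.0, -1.39, and -2.13). PH02Gene33048 was lower throughout (log2 fold changes -1.78, -1.01, and -1.87), and its Day 15 call was lost in 6 of 15 alternatives. Adding up LT15d, LT25d, and RT15d removed the Day 15 calls of all 3 and the Day 25 call of PH02Gene33048. No LT library of these genes overlapped the RT libraries of its day.

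Against CK the run showed that the RT groups had moved too. PH02Gene33049 and PH02Gene33050 had 1.14 to 3.78 FPKM in CK and were called higher than CK in RT1d, RT15d, and RT25d (log2 fold changes 1.13 to 1.66), while among the LT groups only LT25d was called lower, for PH02Gene33049 (-1.08). Of the other tested BX8 and BX9 matches, PH02Gene06044 (scaffold 21, 3847247 to 3848716) was called higher on Day 1 and lower later. It had 0.447, 2.65, and 1.67 FPKM in LT1d against 0.581, 0.464, and 0.51 in RT1d, which overlapped, and 9 of 15 alternatives lost this call. On Day 25 it had 0.152, 0.288, and 0.211 in LT25d against 9.03, 6.39, and 0.500 in RT25d (log2 fold change -4.52, SE 0.98, adjusted p = 0.0012). The groups did not overlap, which was a condition for naming the gene. Its Day 15 and Day 25 calls were lost with LT15d, LT25d, and RT15d each added up.

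The scopoletin glucosyltransferases, known from tobacco for glucosylating the coumarin scopoletin, were 5 genes, of which 3 were tested. PH02Gene30524 (scaffold 14, 42107860 to 42113999) carried 81.6% to 93.9% of their summed FPKM in RT1d, RT15d, RT25d, and LT15d libraries, 56.8% to 91.1% in LT1d, 67.8% to 88.6% in CK, and 45.9% to 59.2% in LT25d. It had 10.8, 3.24, and 3.08 FPKM in CK, 1.29, 4.61, and 2.32 in LT1d, and 23.0, 17.3, and 10.6 in RT1d. On Day 15 both temperatures were high, with 28.6, 27.8, and 26.6 in LT15d and 28.8, 26.9, and 33.3 in RT15d, and on Day 25 it had 2.86, 3.95, and 3.34 in LT25d against 13.1, 12.2, and 9.40 in RT25d. LT lay below RT without overlap on Days 1 and 25, and the groups overlapped on Day 15. The log2 fold changes were -2.10 (SE 0.43, adjusted p = 0.00034), 0.30 (SE 0.40, adjusted p = 0.53), and -1.73 (SE 0.42, adjusted p = 0.0028) on Days 1, 15, and 25. The Day 25 call was lost when LT15d, LT25d, and RT15d were each summed.

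The other scopoletin glucosyltransferases were low. PH02Gene49410 (scaffold 16, 54590043 to 54591930) was at 0 counts in all 3 LT1d libraries, whereas RT1d had 106, 45, and 39 counts. With each LT1d library set to a floor of 12 counts (3 read pairs, taking a pair as 4 counts, the most frequent count above 0), LT1d was at least 3.26-fold lower, which covers counting error only. It was also the only member called higher in LT25d than in CK, with 2.48, 2.04, and 2.25 FPKM against 0.352, 0.220, and 0.433 (log2 fold change 2.5, adjusted p = 8.3e-05). The gene was called higher than CK in RT15d and RT25d as well, with 1.29 to 1.73 FPKM in RT25d. LT25d was not called against RT25d (log2 fold change 0.62). LT15d was called lower than RT15d (-1.26), a call lost in limma on log2(FPKM + 1) and with the groups added up. PH02Gene39605 (scaffold 9, 52938778 to 52940674) had 1.71, 1.87, and 1.59 FPKM in LT15d against 0.994, 1.20, and 0.760 in RT15d (log2 fold change 1.20, SE 0.36, adjusted p = 0.0073), and the call was lost with library-size scaling, in limma with either pseudocount, and with the groups added up. PH02Gene29008 and PH02Gene35472 did not pass 0.37 FPKM in any library.

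The cold effect itself differed between Days 1 and 15 in 39 members (53.4%, against 33.2% of all genes tested) and between Days 1 and 25 in 38 (52.1%, against 44.9%), by a test of the difference in the same fit. With LT15d, LT25d, and RT15d each added up, these counts were 9 (12.3%, against 13.2%) and 29 (39.7%, against 34.4%). The effect was called in opposite directions on Days 1 and 25 in 8 members. Of these, 5 were higher on Day 1 and lower on Day 25, 6.85% of the members against 2.86% of all genes tested, and 3 were lower and then higher, 4.11% against 3.07%. With the same groups added up, 0 members were left of the former (1.08% of all genes) and PH02Gene30418 alone of the latter (1.37%, against 1.55%). The highest of the former was PH02Gene39427 (UGT90A2, scaffold 6, 41831439 to 41833299). It had 4.03, 6.49, and 5.13 FPKM in LT1d against 1.04, 0.892, and 1.26 in RT1d, 17.6, 17.0, and 16.0 in LT15d against 7.22, 5.87, and 6.80 in RT15d, and 7.06, 6.75, and 6.83 in LT25d against 14.1, 15.2, and 14.1 in RT25d. No libraries overlapped on any day. The log2 fold changes were 2.81 (SE 0.24, adjusted p = 3.0e-08), 1.74 (SE 0.23, adjusted p = 4.3e-06), and -1.03 (SE 0.22, adjusted p = 0.0012). The Day 25 call was lost in limma on log2(FPKM + 1) and with the groups added up. Between Days 1 and 25 its RT level went from 0.892 to 1.26 FPKM up to 14.1 to 15.2.

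UGT83A1 matches gave 4 of the 8. PH02Gene29840 (scaffold 13, 106725948 to 106728088) had 0.930, 1.54, and 0.966 FPKM in LT1d against 0.204, 0.291, and 0.747 in RT1d and 1.37, 1.90, and 1.93 in LT25d against 6.18, 4.53, and 4.28 in RT25d (log2 fold changes 1.98 and -1.49). Before treatment it stood at 5.08, 4.70, and 4.08 FPKM, above both Day 1 groups. Its neighbour in the run, PH02Gene29843, moved the other way, with 0.196 to 0.478 FPKM in LT1d against 1.60 to 2.41 in RT1d and 0.359 to 1.22 in LT25d against 0.143 to 0.256 in RT25d (log2 fold changes -2.05 and 1.92). PH02Gene20051 (83A1-like, scaffold 5, 23182145 to 23195273) had 3.31, 3.75, and 1.89 in LT1d against 1.23, 1.84, and 0.555 in RT1d (log2 fold change 1.82) and was called lower on Day 15 (-1.24) and Day 25 (-1.18), but 10 of 15 alternatives lost the Day 25 call. Among the 11 runs with at least 2 tested members, 2 had calls in both directions on Day 1, and in 4 every tested member was called in a single direction.

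**Figure D5:**
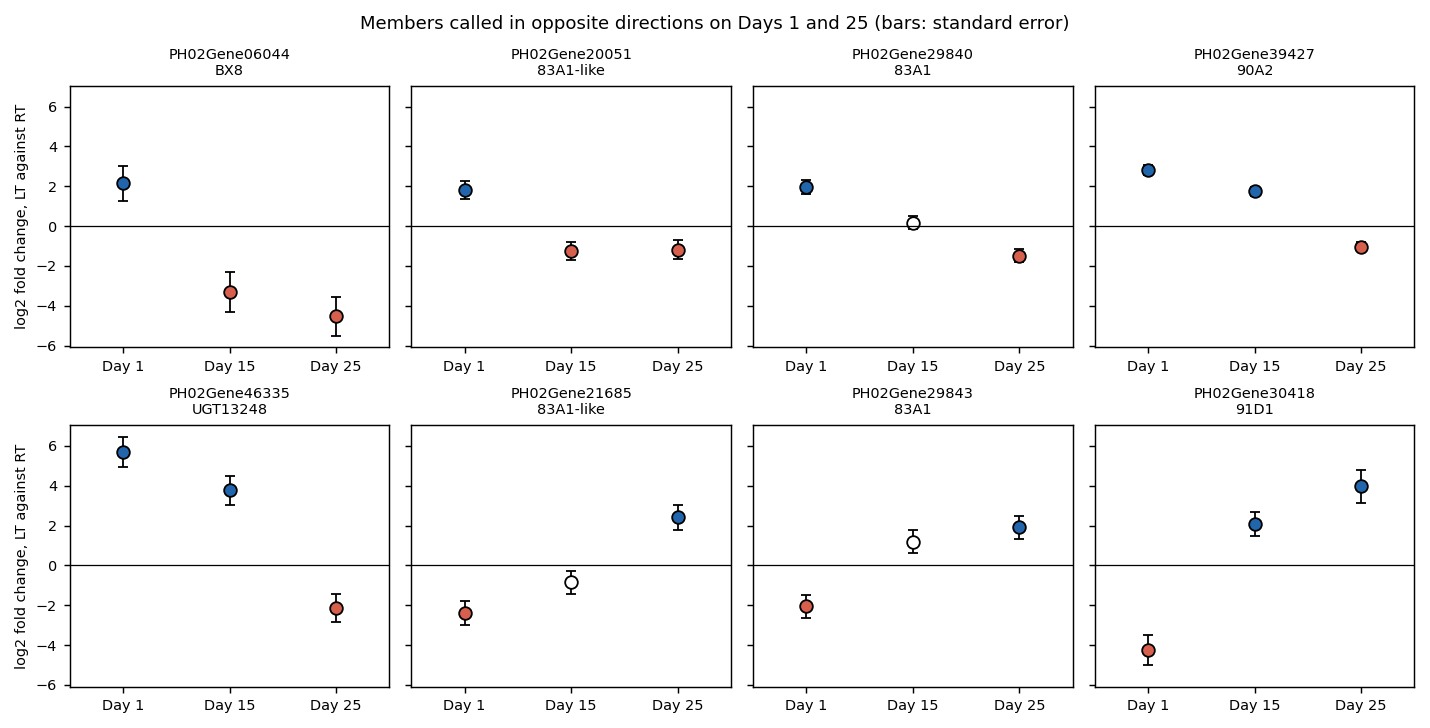
Log2 fold change in LT against RT on each day, with SE, for the 8 members called in opposite directions on Days 1 and 25. Blue points were called higher, red lower, and white not called. The first 5 genes go from above 0 on Day 1 to below 0 on Day 25, and the last 3 from below to above.

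Each treated group was also compared with CK. These comparisons share the 3 CK libraries, so each is given on its own. In LT1d, 11 members were called higher and 22 lower than in CK, against 14.2% and 19.8% of all genes tested (members 15.1% and 30.1%). In LT15d, 22 were higher and 17 lower (30.1% and 23.3% of members, 16.2% and 22.4% of all genes), and in LT25d 1 was higher and 21 lower (1.37% and 28.8%, against 11.3% and 17.0%). In RT1d, 11 were higher and 19 lower (15.1% and 26.0%, against 9.19% and 13.6%). In RT15d, 18 were higher and 14 lower (24.7% and 19.2%, against 10.4% and 15.3%), and in RT25d 11 were higher and 15 lower (15.1% and 20.5%, against 11% and 15.3%). Scaling to library size turned RT1d to 19 higher and 11 lower (16.8% and 9.37% of all genes) and gave 3 higher and 14 lower in LT25d (18.8% and 11.9% of all genes). Without RT1d replicate 1 the RT1d counts fell to 7 higher and 12 lower (9.59% and 16.4%, against 7.97% and 12.1% of all genes). Without CK replicate 2 there were 10 lower. The last was 13.7% of the members against 11.4% of all genes. The RT25d count of higher members was 17 without CK replicate 1 (23.3%, against 15.0% of all genes). It was 6 without CK replicate 2 and 6 without RT25d replicate 1 (8.22% each, against 8.97% and 10.6%), below the share of all genes. The single LT25d rise became 3 without CK replicate 1 (4.11%, against 13.9%) and 2 without CK replicate 2 (2.74%, against 10.2%). PH02Gene47542 (85A7-like), chosen after its values were seen, had 36.9, 33.6, and 34.4 FPKM in CK and at most 14.0 in any other library, and was called lower than CK in all 6 treated groups.

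Against this, 9 members were not called between LT and RT on any day, 12.3% of those tested against 35.0% of all genes. Besides PH02Gene19542, PH02Gene32133, and PH02Gene40615 they were the second TURAN match PH02Gene42408 (6.48 to 13.3 FPKM over all libraries), the second UGT80A2 match PH02Gene42954 (2.56 to 9.06 FPKM), PH02Gene20026 (3.65 to 8.94 FPKM), PH02Gene31609 (0.625 to 4.47 FPKM), PH02Gene29097, and PH02Gene45249. PH02Gene20026 matches UGT84A1, which makes glucose esters of hydroxycinnamic acids in Arabidopsis. The gap between 12.3% and 35.0% was narrower with LT15d, LT25d, and RT15d each added up.

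Genes that supply or reverse the reaction were counted from lists of description words. Of 25 tested genes of UDP-sugar supply, such as sucrose synthase and UDP-glucose dehydrogenase, 13 rose and 2 fell on Day 1. Day 15 had 10 rises and 3 falls, and Day 25 had 4 and 3. Their summed FPKM was 1254 to 1473 in LT1d against 582 to 750 in RT1d, and 1330 to 1358 in LT15d against 860 to 864 in RT15d. On Day 25 the sum was 1545 to 1570 in LT25d against 756 to 1214 in RT25d, again without overlap. Of 25 tested beta-glucosidases, which release the sugar again, 5 rose and 8 fell on Day 1, whereas Day 15 had 7 rises and 10 falls and Day 25 had 4 and 6. Of 13 tested flavonoid glycosyltransferases that the rule left out, 1 rose and 7 fell on Day 1, with 3 rises and 2 falls for Day 15 and 2 and 1 for Day 25. Other glucosyltransferases of small molecules, such as those of zeatin, numbered 16 tested, with 7 rises and 3 falls on Day 1, 6 and 5 by Day 15, and 1 and 3 by Day 25. Of 59 tested MATE and ABCC carriers, which move glucosides and other compounds across membranes, 17 rose and 16 fell on Day 1, 18 and 8 did so by Day 15, and 13 and 11 by Day 25. The background for these counts is the same as for the members on each day.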

How the data were processed

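The authors deposited FPKM and estimated counts per gene for 21 culm libraries. In the methods HISAT2 aligned the reads to the genome of P. edulis, StringTie assembled transcripts, and ballgown gave FPKM, whereas the submitters' processing notes also name cutadapt, FastQC, and Salmon. For the estimated counts the tool, the strandedness, and the treatment of reads with several matches were not given in these sources. Coordinates are those of the deposited table, on that genome. No sequence was analysed here. Sums, SDs, and the values by library are FPKM. Counts were fitted with edgeR 4.0.16 (glmQLFit and glmQLFTest, TMM) in R 4.3.3, with 1 mean for each of 7 groups, and tested on simulated data. An exact permutation test of 3 libraries against 3 cannot fall below 0.1. Alternatives were DESeq2 1.42.0, limma 3.58.1 with pseudocounts of 1 and 0.1, other scalings and filters, a replicate block, the 6 compared libraries alone, sums of LT15d, LT25d, and RT15d, and leaving out each library. The sums for the CK comparisons were added after seeing the data.

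The members, lists, and tests were chosen with earlier results of these data known. Members named were the 8 of highest mean FPKM, the 4 largest non-overlapping rises and falls per day with at least 5 FPKM in the higher group, the 5 scopoletin glucosyltransferases, up to 4 called in the same direction on all days and 4 in opposite directions on Days 1 and 25, by FPKM, and the largest run. Others are marked as chosen after their values were seen, or are named for their place in a run or to complete a subgroup or count.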

Additional observations from a re-analysis of the deposited data

Results flagged for a closer look

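The effect of LT against RT differed between days in many members, by a test of the difference itself in the edgeR fit. From Day 1 to Day 15 the difference was called in 39 of 73 tested members, 53.4% against 33.2% of all genes tested, and from Day 1 to Day 25 in 38, 52.1% against 44.9%. With LT15d, LT25d, and RT15d each summed, the former count was 9, 12.3% against 13.2% of all genes, so it no longer lay above the background, and the latter 29, 39.7% against 34.4%.

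Among the members named by rule, those with opposite calls on the days compared had the following differences on the log2 scale. From Day 1 to Day 15 the effect moved by -5.45 in PH02Gene06044, by -3.06 in PH02Gene20051, by 3.89 in PH02Gene26653, and by 3.69 in PH02Gene50461. From Day 1 to Day 25 it moved by -6.67 in PH02Gene06044, by -3.0 in PH02Gene20051, by -3.46 in PH02Gene29840, by -3.84 in PH02Gene39427, and by -7.84 in PH02Gene46335. Since 3 libraries stood in each group, no search for single outlying libraries was made.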

How the results depend on the processing

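The 29 tested members named by rule gave 60 called values between LT and RT, and of 1344 values under the alternatives 1214 kept direction and side of the threshold, 88 lost a call, 14 gained one, and no called value changed sign. The other 28 were uncalled under both settings and changed sign. Counts called higher and lower on Days 1, 15, and 25 moved as follows. A mean FPKM of at least 5 left 23 members and gave 4 and 6, 5 and 5, and 0 and 7. These were 17.4% and 26.1% on Day 1 (20.2% and 20.6% of all genes) and 21.7% each on Day 15 (18.2% and 17.8%). On Day 25 they were 0% and 30.4% (9.93% and 10.2%). Limma on log2(FPKM + 1) gave 10 higher on Day 1, 12 on Day 15, and 1 on Day 25, and with a pseudocount of 0.1 15 higher on Day 15. These were 13.7%, 16.4%, 1.37%, and 20.5% of the members, against 11.5%, 10.1%, 8.22%, and 13.1% of all genes. Library-size scaling gave 15 higher on Day 15. With LT15d, LT25d, and RT15d summed, Day 15 had 7 and 7, Day 25 had 2 and 6, and the difference between Days 15 and 1 was called in 9, where a lone summed library is assumed to vary like the other groups. Against CK, limma on log2(FPKM + 1) gave 13 lower in LT1d, 11 in LT15d, and 9 in LT25d. These were 17.8%, 15.1%, and 12.3% of the members, against 14.9%, 16.5%, and 8.33% of all genes. Limma gave 7 lower in RT1d and 9 in RT15d (9.59% and 12.3%, against 7% and 8.28%). In RT25d it gave 7 higher and 6 lower (9.59% and 8.22%, against 10.4% and 8.76%). The LT15d share and both RT25d shares thus lay below those of all genes. The sums gave 8 lower in LT15d, 7 in LT25d, 11 in RT1d, and 3 in RT15d, and 8 higher in RT15d. Library-size scaling gave 3 higher in LT25d and 19 higher and 11 lower in RT1d. Leaving out 1 library gave 1 to 3 higher in LT25d, 7 to 16 higher and 10 to 20 lower in RT1d, and 6 to 17 higher in RT25d. The 10 lower in RT1d, without CK replicate 2, were 13.7% of the members against 11.4% of all genes. The 20, without CK replicate 1, were 27.4% against 15.8%. The 16 higher in RT1d, also without CK replicate 1, were 21.9% against 13.2%. The cause was not tested. DESeq2 gave 18 and 27, 24 and 22, and 5 and 20 on the 3 days.

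LT and RT libraries of a day with the same replicate number did not deviate together (correlations -0.067 to 0.011 over genes). The sources used here do not say what the numbers stand for, and a shared plant or run was not tested. The replicate block gave 19 and 27, 22 and 20, and 5 and 19. Members under 1 FPKM are limited by depth.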
